A study of Homo sapiens with 6 samples.

Results

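Vitamin D is switched on and off by a short chain of cytochrome P450 hydroxylases. The 7 genes followed here were the 4 hydroxylases CYP2R1, CYP27A1, CYP27B1 and CYP24A1, and 3 electron carriers, FDX1, FDX2 and FDXR. Of the carriers, FDX1 and FDXR serve that chain, and FDX2 is a paralogue of FDX1. All 7 were chosen by gene name from a table of 19201 entries and were found there. Each was among the 19101 entries that passed the filter on low counts. The libraries came from the human cell line H1299, established from a non-small cell lung cancer: 3 of wild-type cells and 3 of cells in which the long non-coding RNA lncBCAS1-4_1 was overexpressed. The labels name no treatment, no vector for the wild-type cells and no separate cultures for the replicates, so effects of the procedure and of the RNA cannot be told apart. P-values here measure the spread between libraries, and that spread may be technical. The study's title calls the RNA a functional homolog of CYP24A1 and concerns the active form of vitamin D.

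As background, vitamin D from skin or diet is first hydroxylated on its side chain, mainly by the microsomal enzyme CYP2R1 and to a lesser degree by mitochondrial CYP27A1. Mitochondrial CYP27B1 then makes the active hormone, and CYP24A1, also mitochondrial, breaks down both the hormone and its precursor. CYP24A1 is a classic target of the vitamin D receptor VDR, so that the hormone induces its own removal. The mitochondrial P450s receive electrons from NADPH through the flavoprotein ferredoxin reductase (FDXR) and the iron-sulfur protein ferredoxin (FDX1), whereas CYP2R1 takes them from the microsomal reductase POR. FDX2 is the paralogue of FDX1 that serves iron-sulfur cluster assembly, and FDX1 is also needed for protein lipoylation.

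Total counts per library were between 84531039 and 92780032. Of 6 epithelial markers, 4 had an entry, and KRT18 and KRT8 were abundant while KRT19 was below 1 CPM (counts per 1000000 library counts, scaled by TMM). KRT7 had mean levels of 2.79 CPM in the wild-type and 5.09 CPM in the overexpressing libraries. EPCAM and CDH1 were not analysed here. Of 6 lung alveolar markers only NKX2-1 had an entry, with a sum of 0.516 to 0.782 CPM in the wild-type and 0.261 to 0.599 CPM in the overexpressing libraries. Of 6 markers of the kidney tubule, the main site of CYP27B1 and CYP24A1 in the body, 3 had an entry. They summed to 3.02 to 3.30 CPM in the wild-type and 3.49 to 3.60 CPM in the overexpressing libraries. The 3 immune markers present summed to 69.9 to 74.2 and 79.6 to 88.4 CPM, nearly all of it CD68, and the 5 fibroblast and endothelial markers present to 2.68 to 3.42 and 2.90 to 4.13 CPM. Fold changes across all entries followed the GC content of the transcripts (Spearman correlation across 18968 entries, which are not independent replicates, 0.54), so each member is also given after correcting for transcript GC content and length. This correction removes any difference that follows GC content or length, whatever its source.

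The start regions of the 3 carriers and of CYP27A1 are shown first, so that the letters at the starts of these genes can be compared. The GC trend above was taken over transcripts, and most of each window lies before the start. RefSeq start regions (GRCh38.p14, 250 bases before to 50 after the start) were matched for 5 of the 7 members, and none was used for CYP24A1 or CYP27B1. The windows below are FDXR on the minus strand at chr17:74872945-74873244, FDX2 on the minus strand at chr19:10315966-10316265, FDX1 on the plus strand at chr11:110429698-110429997 and CYP27A1 on the plus strand at chr2:218781897-218782196, each 5′ to 3′ on the gene's own strand. Capitals mark matches, on either strand, to the GC box (GGGCGG), the promoter element CCAAT, the promoter element TATAAA, the E-box CACGTG, or a hexamer of the kind that makes up vitamin D receptor sites (the hexamer AGGTCA, the hexamer AGTTCA or the hexamer GGTTCA).
FDXR: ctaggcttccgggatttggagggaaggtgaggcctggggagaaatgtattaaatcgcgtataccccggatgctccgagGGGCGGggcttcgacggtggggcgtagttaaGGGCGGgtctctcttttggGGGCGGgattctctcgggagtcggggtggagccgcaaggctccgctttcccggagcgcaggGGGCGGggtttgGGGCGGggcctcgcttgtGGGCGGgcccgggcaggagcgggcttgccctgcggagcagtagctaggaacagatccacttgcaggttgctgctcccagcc
FDX2: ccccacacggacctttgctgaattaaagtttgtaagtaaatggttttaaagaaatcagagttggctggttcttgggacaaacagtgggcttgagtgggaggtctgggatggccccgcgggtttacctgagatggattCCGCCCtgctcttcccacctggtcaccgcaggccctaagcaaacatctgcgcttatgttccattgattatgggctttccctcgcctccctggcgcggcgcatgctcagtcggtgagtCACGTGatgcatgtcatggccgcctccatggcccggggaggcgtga
FDX1: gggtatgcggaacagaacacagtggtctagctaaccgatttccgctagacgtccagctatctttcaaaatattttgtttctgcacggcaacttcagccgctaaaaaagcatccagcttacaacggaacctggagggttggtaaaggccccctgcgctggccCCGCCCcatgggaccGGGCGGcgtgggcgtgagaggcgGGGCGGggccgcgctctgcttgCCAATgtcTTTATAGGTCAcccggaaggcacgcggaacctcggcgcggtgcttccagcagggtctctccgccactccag
CYP27A1: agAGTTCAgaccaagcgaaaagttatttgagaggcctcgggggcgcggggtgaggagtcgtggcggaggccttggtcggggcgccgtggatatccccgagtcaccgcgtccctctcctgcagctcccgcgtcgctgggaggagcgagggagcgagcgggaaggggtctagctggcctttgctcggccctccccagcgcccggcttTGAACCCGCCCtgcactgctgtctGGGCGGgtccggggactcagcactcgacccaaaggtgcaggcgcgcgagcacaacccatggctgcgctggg

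FDXR held 6 GC boxes, a number reached by 2.86% of 35116 RefSeq start regions, against 3 in FDX1, 2 in CYP27A1 and 1 in FDX2; 45.0% of regions held at least 1. FDX1 alone among the printed windows held a CCAAT box (34.6% of all regions) and a TATAAA match (11.5%), the latter overlapping an AGGTCA hexamer (13.8%) by 1 base. The matched window of CYP2R1, not printed, held 2 CCAAT boxes. CYP27A1 held 1 AGTTCA (10.4%) and 1 GGTTCA (8.62%), the second overlapping a GC box by 1 base. FDX2 held 1 E-box (7.26%) and none of the 3 hexamers. The windows were 66.3% GC in FDXR, 56.0% in FDX2, 60.3% in FDX1 and 68.7% in CYP27A1. Such matches describe the letters only.

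Of the 7 members, 4 passed the test (adjusted p under 0.05) as higher with overexpression and none as lower: CYP24A1, CYP27A1, FDX2 and FDXR. CYP27A1 had entered the test only through its overexpressing libraries, which alone passed the filter on low counts. It therefore adds no support of its own to the counts of members given here. Over all entries tested, 18.3% were called higher and 19.7% lower. The median log2 fold change was 0.52 over the members, CYP27A1 included, and -0.0041 over all entries. After the correction for GC content and length these medians were 0.24 and -0.016. The members were chosen with earlier results of these data known. In the 4 called genes the libraries of the groups did not overlap in CPM. The same was the case, with the overexpressing cells higher, for 24.7% of all entries. No such share was computed for corrected levels. By the criterion in the labels (a change above 2-fold and p under 0.05 without adjustment) only the hydroxylases CYP24A1 and CYP27A1 were called, against 1.77% of all entries called higher in that way. With GC content and length corrected, 4 members were again higher and none lower, but FDX1 took the place of FDX2; 10.7% of all entries were then called higher and 11.6% lower.

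**Figure D1:**
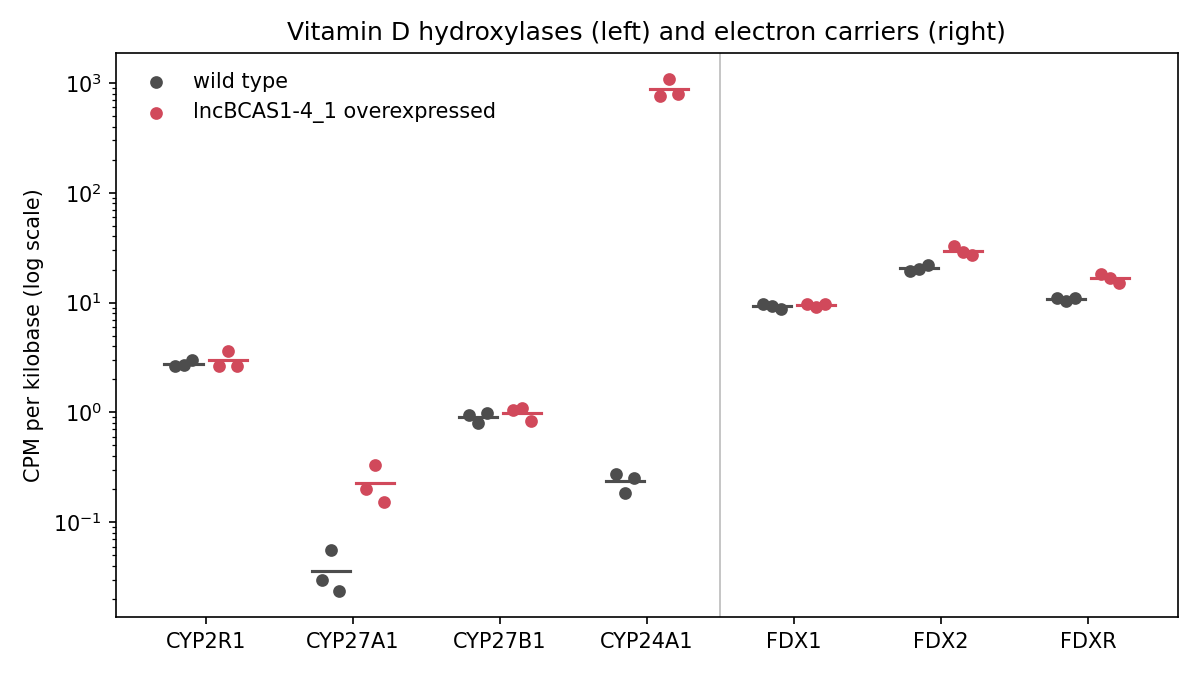
Level of each member in CPM per kilobase of its canonical transcript (log axis), with 1 point per library (3 wild-type and 3 overexpressing) and a line at the group mean. CYP24A1 moves from 0.237 to 887.1 CPM per kilobase on average, while CYP2R1, CYP27B1 and FDX1 overlap between the groups.

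CYP2R1, the microsomal enzyme of the first hydroxylation step (ENSG00000186104, chromosome 11, bases 14877440 to 14892231 on the minus strand, GENCODE 44 for GRCh38 as for all loci here), had 523, 566 and 592 counts in the wild-type and 494, 674 and 523 counts in the overexpressing libraries. These were levels of 5.87, 5.98 and 6.59 CPM against 5.85, 8.08 and 5.82 CPM, so that the second overexpressing library was higher than every other and the other two lay just below the controls. The log2 fold change was 0.10 (95% interval -0.25 to 0.45, adjusted p = 0.67 by edgeR's quasi-likelihood test), and 0.24 (-0.13 to 0.62, adjusted p = 0.36) after the correction. Neither fit called a difference. Without the second overexpressing library the value was -0.073 (adjusted p = 0.74).

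CYP27A1, the mitochondrial sterol hydroxylase that also starts bile acid side-chain oxidation (ENSG00000135929, plus strand of chromosome 2 from 218781749 to 218815293), was the lowest member in both groups. It had 5, 10 and 4 counts in the wild-type and 32, 52 and 26 counts in the overexpressing libraries. No control exceeded the minimum count of 10 set by the filter on low counts. CYP27A1 thus passed that filter only through the overexpressing libraries. Without the filter its call was kept (adjusted p = 0.0069 by edgeR). The lowest overexpressing library, at 0.289 CPM, was above the highest control, at 0.106 CPM. The mean level was 0.069 ± 0.032 CPM in the wild type and 0.430 ± 0.173 CPM with overexpression (SD, n = 3 each), and the rise was 6.13-fold (log2 fold change 2.61, SE 0.59, 95% interval 1.29 to 3.94, adjusted p = 0.0069 by edgeR), and by 2.28 (SE 0.58, adjusted p = 0.021) after the correction. The fold rests on 19 control counts in all against 110, and even after the rise CYP27A1 ranked 16054 of 18968 entries by CPM per kilobase, from 18580 in the controls.

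CYP27B1, the enzyme that makes the active hormone (ENSG00000111012, minus strand of chromosome 12 from 57762334 to 57768986), had 202, 180 and 209 counts in the wild-type and 212, 218 and 177 counts in the overexpressing libraries. Its levels of 2.27, 1.90 and 2.33 CPM and of 2.51, 2.61 and 1.97 CPM overlapped, with the third overexpressing library inside the range of the controls. The log2 fold change was 0.13 (95% interval -0.27 to 0.53, adjusted p = 0.63 by edgeR), and it became -0.15 (-0.53 to 0.23, adjusted p = 0.60) after the correction. Both intervals hold changes in both directions. Its exons share 107 bases with METTL1, a transfer RNA methyltransferase gene on the same strand, but none of them lies in the canonical CYP27B1 transcript. METTL1 stood at 29.3 ± 2.1 and 35.7 ± 5.1 CPM (SD, n = 3 each), a log2 difference of 0.29 that was not called (adjusted p = 0.055).

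CYP24A1, the enzyme that inactivates the hormone (ENSG00000019186, minus strand of chromosome 20 from 54153446 to 54173986), had 81, 57 and 74 counts in the wild-type against 212102, 299348 and 235864 in the overexpressing libraries. The levels were 0.909, 0.602 and 0.824 CPM against 2513, 3587 and 2623 CPM, and the second overexpressing library was the highest. The log2 fold change was 11.87 (SE 0.21, 95% interval 11.39 to 12.35, adjusted p = 7.4e-09 by edgeR) and 11.94 after the correction. CYP24A1 took between 0.242% and 0.354% of all counts of an overexpressing library, and by CPM per kilobase it moved from rank 15942 to rank 76 of 18968 entries. The spread between libraries relative to the mean was the same in both groups, with a coefficient of variation of 20.3% in each.

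No window of 100 bases of the canonical CYP24A1 transcript, which has 12 exons and 3278 bases, occurs in an annotated transcript of another gene, so its counts are not shared with an annotated neighbour. An entry for lncBCAS1-4_1 was not analysed here, and the sequence of the introduced RNA was not used. If that RNA contains sequence of CYP24A1, its reads would be counted under this gene, and gene-level counts cannot be told apart into those of the chromosomal gene and those of an introduced RNA. The vitamin D receptor VDR, on which induction of CYP24A1 by the hormone depends, was at 64.3 ± 4.5 and 58.8 ± 2.7 CPM (SD, n = 3 each). It did not pass as fitted (log2 fold change -0.13, adjusted p = 0.13) and was lower after the correction (-0.22, adjusted p = 0.014).

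Levels compared per length place the enzymes in order. In the wild-type cells CYP2R1 came first at 2.78 ± 0.18 CPM per kilobase, then CYP27B1 at 0.913 ± 0.097, CYP24A1 at 0.237 ± 0.048 and CYP27A1 at 0.036 ± 0.017 (SD, n = 3 each), and no neighbours in that order overlapped. CYP2R1 made up 67.7% to 72.2% of the summed level per kilobase of the 4 hydroxylases and CYP24A1 4.91% to 7.09%. In the overexpressing cells CYP24A1 made up 99.5% of that sum in every library, ahead of CYP2R1 at 2.97 ± 0.58, CYP27B1 at 0.997 ± 0.146 and CYP27A1 at 0.227 ± 0.091 CPM per kilobase. These CYP24A1 levels would include reads of the introduced RNA if it holds CYP24A1 sequence. As counted, CYP24A1, the inactivating enzyme, stood at 0.259 ± 0.031 of the level of the activating enzyme CYP27B1 in the wild type. With overexpression it stood at 894 ± 148 times the level of CYP27B1. The log2 ratio of their counts went from -1.49 to 10.25, a difference of 11.74, with no overlap (exact permutation test, two-sided, p = 0.10, the smallest that 3 against 3 can give; adjusted p = 0.10 over 3 ratios).

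**Figure D2:**
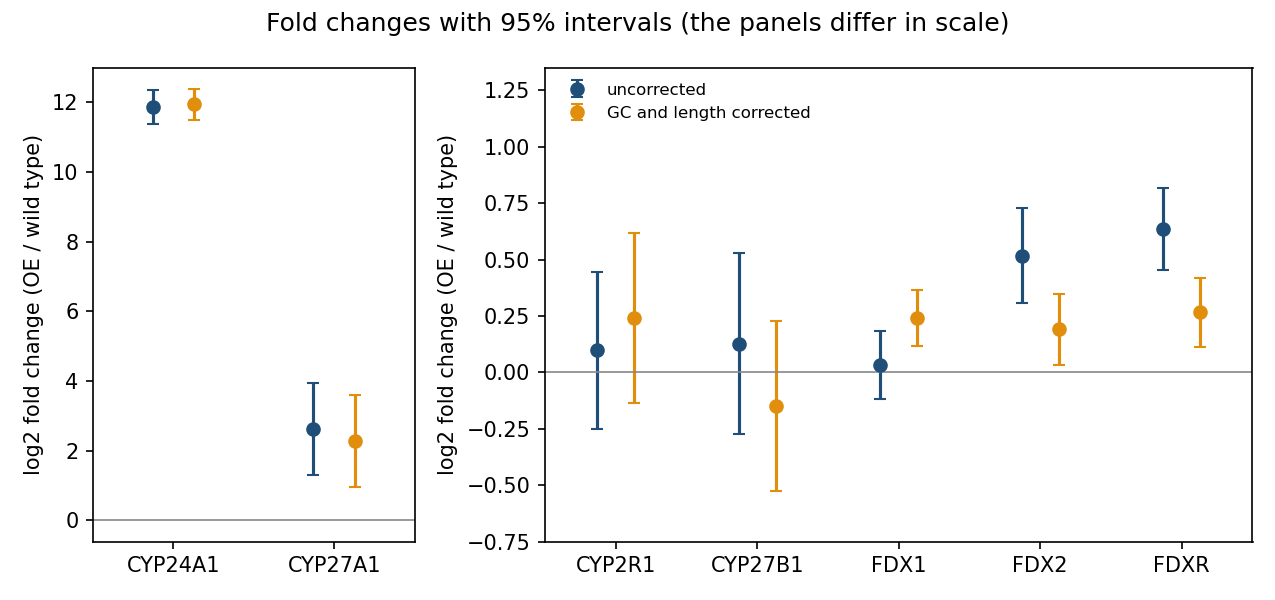
Log2 fold change of each member (overexpressing over wild-type cells) with its 95% interval, uncorrected and after the GC and length correction. CYP24A1 and CYP27A1 are on a wider axis than the other 5 members; FDX2 and FDXR fall from 0.52 and 0.64 to 0.19 and 0.27 with the correction, and FDX1 rises from 0.033 to 0.24.

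FDXR, the reductase that passes electrons from NADPH to the ferredoxins (ENSG00000161513, minus strand of chromosome 17 from 74862497 to 74873031), had 1814, 1799 and 1811 counts in the wild-type and 2819, 2593 and 2520 counts in the overexpressing libraries. Every overexpressing library, from 28.0 to 33.4 CPM, lay above every control, from 19.0 to 20.4 CPM. The rise was 1.55-fold (log2 fold change 0.64, SE 0.08, adjusted p = 0.00047 by edgeR). After the correction it was 1.20-fold (log2 fold change 0.27, SE 0.07, adjusted p = 0.020), and the corrected levels of 22.5 ± 1.1 and 27.1 ± 1.7 CPM (SD, n = 3 each) still did not overlap. FDXR is therefore the carrier called in both fits, at less than the 2-fold criterion of the labels.

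FDX2, the ferredoxin of iron-sulfur cluster assembly (ENSG00000267673, minus strand of chromosome 19 from 10309916 to 10316015), had 1741, 1955 and 2019 counts in the wild-type and 2823, 2424 and 2445 counts in the overexpressing libraries. Mean levels were 20.9 ± 1.5 and 29.9 ± 3.2 CPM (SD, n = 3 each) with no overlap between libraries, and the rise was 1.43-fold (log2 fold change 0.52, SE 0.09, adjusted p = 0.0023). The call was lost after the correction, at 0.19 (SE 0.07, 95% interval 0.035 to 0.35, adjusted p = 0.081 by edgeR). The corrected libraries did not overlap, but the share of all entries for which that held was not computed. FDX2 is also the member whose counts are least certain: 84.5% of the 100-base windows of its canonical transcript, of 1012 bases, occur in the read-through gene ENSG00000167807, which runs on into ZGLP1 and has an entry of its own. That entry had 393, 470 and 307 counts against 411, 443 and 424 (log2 fold change 0.22, adjusted p = 0.33), and it held 12.7% to 19.4% of the sum of both. The sum, an alternative chosen after seeing the data, was higher by 0.47 on the log2 scale (adjusted p = 0.0017), and the value was 0.14 (adjusted p = 0.13) after the correction.

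FDX1, the ferredoxin that serves the mitochondrial P450s (ENSG00000137714, plus strand of chromosome 11 from 110429948 to 110464884), had 2736, 2773 and 2483 counts in the wild-type and 2587, 2397 and 2722 counts in the overexpressing libraries. The levels, 30.7, 29.3 and 27.6 CPM against 30.7, 28.7 and 30.3 CPM, overlapped. As fitted, no difference was called (log2 fold change 0.033, 95% interval -0.12 to 0.18, adjusted p = 0.75). After the correction FDX1 was higher (log2 fold change 0.24, SE 0.05, 95% interval 0.12 to 0.37, adjusted p = 0.012), at 27.2 ± 0.6 and 32.1 ± 1.3 CPM (SD, n = 3 each) with no overlap. Of its 100-base windows, 0.328% occur in the processed pseudogene FDX1P1, and no other gene shares any.

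**Figure D3:**
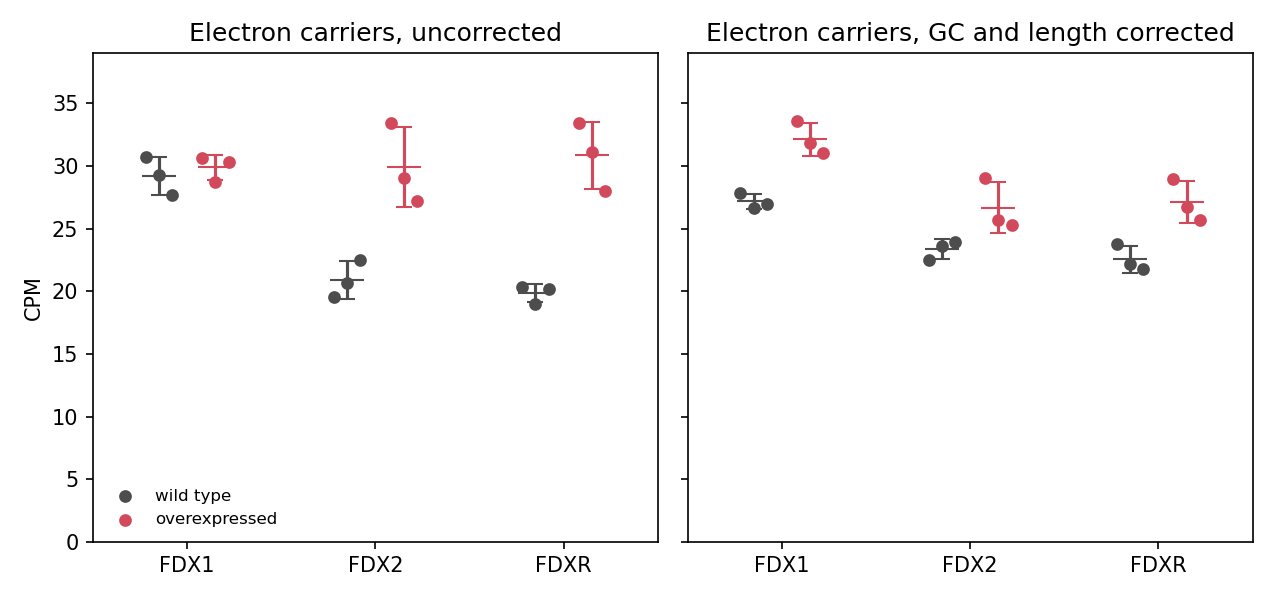
Level of the 3 electron carriers in CPM in each library (points), with the mean and SD of 3 libraries per group, before (left) and after (right) the GC and length correction. Before it FDX1 overlaps between the groups and FDX2 and FDXR do not. After it the overexpressing libraries lie above the wild-type ones for all 3. The share of all entries for which that held after the correction was not computed.

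The carriers differed from each other in GC content, and with it in what the correction did. The canonical transcript of FDX1 has 41.4% GC and those of FDX2 and FDXR have 61.4% and 63.5%. The trend over all entries amounted to a log2 difference of -0.21 for a transcript of the GC content and length of FDX1, and of 0.33 and 0.37 for FDX2 and FDXR. Among the 1590 entries in the GC bin of FDX1, 2 percentage points wide, the middle 50% of log2 fold changes ran from -0.52 to -0.046, and FDX1 at 0.033 was above it. FDX2 at 0.52 was above the middle 50% of the 1017 entries in its bin (0.11 to 0.44), and FDXR at 0.64 above that of its 775 (0.087 to 0.46).

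**Figure D4:**
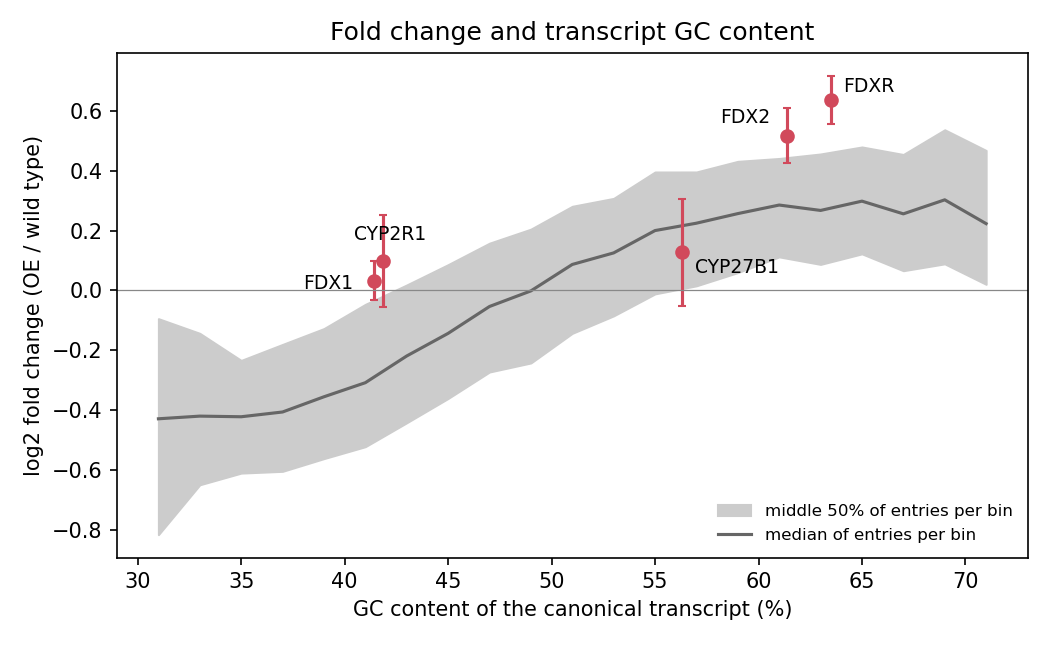
Log2 fold change against GC content of the canonical transcript, with the median (line) and middle 50% (band) of all entries in bins 2 percentage points wide, and 5 members as points with their SE; CYP24A1 and CYP27A1 are off this scale. FDX1, FDX2, FDXR and CYP2R1 lie above the band at their GC content, and CYP27B1 lies within it. By construction a part of all entries lies above the band, and CYP2R1 was called in neither fit.

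The balance between partners was taken as a ratio within each library. The log2 ratio of FDX2 to FDX1 counts went from -0.48 ± 0.18 to -0.0042 ± 0.14 (SD, n = 3 each), a difference of 0.48 with no overlap, but -0.053 after the correction (exact permutation tests, two-sided, p = 0.10 and p = 0.40). That of FDX1 to FDXR went from 0.56 ± 0.09 to -0.042 ± 0.13, a difference of -0.60, and of -0.023 after the correction (p = 0.10 and p = 0.50 by the same exact permutation test). Each uncorrected p is the smallest that 3 against 3 can give, with an adjusted p of 0.10 over the 3 ratios. Per length, FDX2 was the highest carrier in both groups, at 20.6 ± 1.5 and 29.5 ± 3.2 CPM per kilobase, followed by FDXR at 10.7 ± 0.4 and 16.7 ± 1.5 and FDX1 at 9.29 ± 0.49 and 9.51 ± 0.33. No neighbours in that order overlapped.

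Counts under CYP24A1 and those of its electron carriers FDXR and FDX1 changed places in abundance per length. In the wild-type cells CYP24A1 stood at 0.022 ± 0.004 of the level of FDXR and 0.026 ± 0.005 of that of FDX1 per kilobase (SD, n = 3). In the overexpressing cells it stood at 53.4 ± 11.3 times the level of FDXR and 93.8 ± 22.6 times that of FDX1. The summed level of the 4 hydroxylases was 3.74 to 4.23 CPM per kilobase in the wild-type and 770.6 to 1099 in the overexpressing libraries. That of the 3 carriers, of which FDX2 was the highest, was 40.0 to 41.9 and 51.7 to 60.9. Within the overexpressing group the second library was the highest for all 4 hydroxylases and the first for all 3 carriers. These are values of RNA, and protein was not measured. Counts under CYP24A1 would include reads of the introduced RNA if it holds CYP24A1 sequence.

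The entries with the most similar profiles over the 6 libraries, by root mean square distance of log2 CPM from the wild-type mean among 11262 or 11263 entries with a symbol and a mean log2 CPM of at least 2, were as follows. Nearest to CYP24A1 were OASL, at a distance of 2.80 log2 units and a log2 fold change of 7.94, then DMBT1 (5.45) and IFIT2 (5.62), so that no such entry was close. Nearest to CYP27A1 were ISG20 (0.36), IRF9 (0.47) and NR4A2 (0.51). FDX2 had PXMP2, THEM6 and NDUFB7 within 0.038 log2 units, and FDXR had BRF2, TMEM120A and PCSK1N within 0.034. Likeness of this kind rests mainly on the size of the difference between the groups.

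The genes around the members were counted in lists, to be read beside the 18.3% of all entries called higher and 19.7% called lower (10.7% and 11.6% after the correction); no list was tested against these shares. Of 17 other P450 genes tested, 1 was higher and 1 lower; their median was -0.11 on the log2 scale. CYP51A1, the lanosterol demethylase of cholesterol synthesis, rose 1.12-fold (adjusted p = 0.047; log2 fold change 0.39 after the correction). Without the correction its call was lost by library size alone, with the replicate block and on leaving out any library except the first overexpressing one. CYP1B1 fell (log2 fold change -0.59, adjusted p = 0.0013; -0.36 after it). Of the mitochondrial P450s outside the members, which share FDX1 and FDXR with them, CYP27C1 was at 14.1 and 13.8 CPM (log2 fold change -0.030, adjusted p = 0.82) and CYP11A1, the enzyme that starts steroid synthesis, at 0.240 and 0.170 CPM (adjusted p = 0.75). Among 9 sterol and bile acid enzymes tested, none was higher (1 without the third overexpressing library or after the correction) and only SCP2, a sterol carrier and thiolase gene, was lower, with a value of -0.32 on the log2 scale (adjusted p = 0.0041; -0.11 and not called after the correction).

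Among 9 genes of vitamin D reception and handling, 3 were higher and none lower, with a median of 0.11 on the log2 scale (3 higher and 1 lower after the correction). DHCR7, which uses up the precursor of vitamin D in making cholesterol, rose 1.51-fold (adjusted p = 0.00011 by edgeR). Its mean went from 146.7 ± 5.3 CPM to 220.9 ± 11.0 CPM (SD, n = 3 each). After the correction its log2 fold change was 0.30, still called. RXRB, a receptor partner of VDR, rose by a log2 fold change of 0.37 (0.085 after it, not called). Of 8 genes of microsomal electron donors and P450-associated proteins, 3 were higher and 3 lower (3 and 1 after the correction). POR, the reductase that serves CYP2R1, rose 1.27-fold (adjusted p = 0.0012), and its corrected log2 fold change was 0.0036. CYB5R1 rose 1.41-fold (log2 fold change 0.31 corrected, still called). CYB5R4 fell by 0.49 on the log2 scale (-0.035 corrected, not called) and PGRMC1 by 0.19 (-0.12 corrected, still called).

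Mitochondrial iron-sulfur assembly, the setting of FDX2, had 5 of 20 genes higher and none lower (median log2 fold change 0.066; 5 higher and 1 lower after the correction). The count of 5 was not stable: it was 1 without the second control, without the first overexpressing library, by library size alone and with the replicate block. It was 3 without the first control and without the second or the third overexpressing library, and 8 with DESeq2. Without the third control or the third overexpressing library 1 gene was lower. GFER, a sulfhydryl oxidase, rose 1.31-fold and GRPEL1, a chaperone cofactor, 1.13-fold. The corrected log2 fold changes were 0.036, not called, and 0.20, called. ISCU, the scaffold protein gene, had a fitted value of 0.11 on the log2 scale (adjusted p = 0.11) and is named after its value was seen. Of 12 genes of lipoylation and the lipoylated complexes, 3 were higher and 4 lower (3 and 0 after the correction; 2 lower without the first control), among them DLST up 1.25-fold, OGDH up 1.18-fold, and DLAT and GCSH down by 0.29 and 0.27 on the log2 scale. Of these 4, DLST was called after the correction (log2 fold change 0.18).

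Heme, the cofactor of every P450, is made by a pathway whose list had 6 of 14 genes higher and 2 lower (2 higher and 4 lower after the correction; median log2 fold change 0.12 and 0.074). Only 1 was lower without the first or the second control, without the second or the third overexpressing library, and with the replicate block. HMOX1, which degrades heme, rose 1.46-fold (log2 fold change 0.23 corrected, still called). UROD rose 1.28-fold (log2 fold change 0.11 corrected, not called). CPOX fell by 0.34 on the log2 scale in the uncorrected fit and by 0.33 in the corrected one, called in both. COX15, which makes heme A, fell by 0.14, and its value turned to 0.11 higher, not called, after the correction. Of 8 genes of mitochondrial NADPH supply, 1 was higher and 5 lower (2 and 1 after the correction). The 5 became 2 without the second control, 3 without the first control or the first or second overexpressing library, and 3 with the replicate block; 2 were higher without the third overexpressing library. IDH2 rose 1.29-fold (log2 fold change 0.13 corrected, not called). GLUD1 fell by 0.24 on the log2 scale (-0.14 corrected, still called). ME2 fell by 0.25, which turned to 0.21 higher after the correction and was then called higher.

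Of 5 sterol delivery genes 2 were higher and 2 lower (0 and 1 after the correction): STARD3 and TSPO rose 1.36-fold and 1.30-fold, and ACBD3 and STARD4 fell by 0.48 and 0.40 on the log2 scale, of which ACBD3 was still called and STARD4 turned to 0.071, not called. Of 11 copper handling genes 3 were higher and 2 lower (3 and 0 after it). The metallothionein genes MT2A and MT1X rose 1.68-fold and 1.53-fold and were called in both fits, while ATP7A and SCO1 fell by 0.53 and 0.18 on the log2 scale. Neither was called after the correction, where ATP7A was at -0.075 and SCO1 turned to 0.11. Messenger RNAs of the mitochondrial genome, which can also reflect RNA quality, were all lower, 13 of 13 in both fits, with a summed level of 12940 to 14780 CPM in the wild-type and 8117 to 8830 CPM in the overexpressing libraries. Their part in the differences of the nuclear-encoded mitochondrial genes was not tested.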

How the data were processed

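RNA-seq gene counts of 3 wild-type and 3 lncBCAS1-4_1-overexpressing H1299 libraries were analysed, grouped by their labels. Per the labels' protocols, the authors used fastp for trimming, HISAT2 for alignment to GRCh38, StringTie for assembly and expression and edgeR for tests. Versions, the library kit, its strandedness and how reads were assigned to genes are not stated in the labels or headers. The file deposited holds unnormalized whole-number counts.

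The members and gene lists were chosen with earlier results of these data known. Counts were tested with edgeR 4.0.16 (R 4.3.3) by its quasi-likelihood test after TMM and filterByExpr (min.count 10, min.total.count 15), with the group alone and Benjamini-Hochberg adjustment over 19101 entries (threshold 0.05). The SE was taken from the log2 fold change and F. The model without the correction was tested on simulated counts that held no trend of fold change with GC content or length. The correction was not tested in that way. Lengths, GC content and loci were those of GENCODE 44 canonical transcripts (99.3% of tested entries). The correction entered, as offsets, splines of 5 degrees of freedom per library on GC content and log2 length. Ratios used counts plus 0.5. The named genes were all members, VDR, 3 nearest profiles per called member and exon-sharing genes with an entry. Up to 2 called genes per list and direction with the smallest p were added. The lists of cell type markers and of the mitochondrial genome were described without following that rule. No entry was analysed for the ferredoxin pseudogenes. Alternatives were other scalings and filters, DESeq2 1.42.0, limma-voom (limma 3.58.1), a replicate block and leaving out each library. Total counts of 84531039 to 92780032 leave CYP27A1, at well under 1 CPM, on few counts. Replicates of each group differed beyond sampling error (chi-square over degrees of freedom 11.4 to 22.2), so each was counted as its own sample.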

Additional observations from a re-analysis of the deposited data

How the results depend on the processing

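CYP24A1 and FDXR kept their direction and call under every alternative, with log2 fold changes of 11.69 to 12.00 and 0.27 to 0.70. CYP27A1 kept its direction at 2.25 to 3.06, and its call wherever an adjusted p was given. It had no value under a filter of at least 1 CPM in 3 libraries. Under DESeq2 it had no adjusted p and so no call. FDX2 lost its call with the GC and length correction, alone (0.19), with the replicate block (0.19) and summed with the read-through entry (0.14), and FDX1 gained one with it (0.24, and 0.24 with the block); the fitted trend of each transcript's GC content and length is what the correction removes. Uncalled values changed sign for CYP27B1 (-0.149 corrected, -0.152 with the block as well) and for FDX1 by library size alone (-0.017). Leaving out each library gave -0.0057 to 0.070 for FDX1 and -0.073 to 0.18 for CYP2R1; the lowest values came without control 3 and without overexpressing library 2. The FDX2 to FDX1 ratio difference turned to -0.053 with the correction. Entries called were 3496 higher and 3754 lower, 2041 and 2223 with the correction, 1516 and 1640 with the correction and block, and 338 and 226 by the 2-fold criterion of the labels; 2863 calls were kept in direction by the correction. The replicate numbers shared by the groups did not pair the libraries (correlation of same-numbered deviations -0.44 to -0.07, with 0 of 6 libraries closest to their own number). The replicate block alone gave 5695 calls in place of 7250 and changed no member's call. Of 510 counts of called genes per list and alternative, 435 stayed within 1.5 times the value given and 75 did not, 28 of them in the fits with the correction.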
